A study of Drosophila melanogaster with 5 samples.

Results

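Overexpression of the linker histone H1 in neurons (H1OE) was compared with an untreated control in fly heads at 29 °C. The comparison took every feature of the 29 °C count table with at least 50 counts in 1 of the 2 libraries, which left 9132 of 24034 annotated features. Linker histone H1 binds nucleosomes where DNA enters and leaves the particle, and it compacts chromatin. In flies it is encoded by a cluster of near-identical His1 copies and is rich in silent heterochromatin. The series is concerned with H1 and fat breakdown.

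The H1OE flies came, per the labels' protocols, from crossing a temperature-sensitive elav driver strain with an H1 overexpression strain, the cross being kept at 18 °C. Offspring were then held at 29 °C for 7 days. elav is a gene active in all neurons. The control was labelled wild type at 29 °C, and its labels give neither a driver nor how it was reared, so driver, genetic background, rearing temperature and time at 29 °C cannot be told apart from H1. Both were polyA RNA, called heads in the sample titles and brain in the tissue label, and neither sex nor age was stated. A library of wild type flies given Levodopa at 4 g/L in their food for 7 days, at 29 °C, and an untreated wild type control at 25 °C are given beside some values. The 25 °C table was made separately, so levels set across both tables are a description only. Each group had 1 library, so no difference has a replicate check, no p-value can be given, and intervals cover counting error only.

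The libraries held 26832877 counts for H1OE, 25975838 for Levodopa and 24770629 for control, and a count of 0 allows up to 3 counts, or 0.112 CPM (counts scaled to a library total of 1e6) in H1OE and 0.121 CPM in control. Neuron, eye and male markers differed little. The 7 neuron markers summed to 3845 CPM in H1OE, 3710 CPM in Levodopa and 3438 CPM in control. The 7 photoreceptor markers summed to 73129 CPM in H1OE, 75727 CPM in Levodopa and 71072 CPM in control, so all 3 hold eye RNA and not brain alone. Fat body, the insect counterpart of liver and fat tissue, did differ. Of these 7 markers, 5 were compared and 3 were at least 2-fold lower in H1OE, namely Lsp1beta, Lsp2 and Obp99b. The other markers compared, apolpp and FASN1, did not pass. All 7 summed to 7958 CPM in H1OE, 15320 CPM in Levodopa and 19948 CPM in control. In the 25 °C control columns they summed to 6323 and 6361 CPM, below H1OE. The part of fat body content in the other results was not tested. Glial markers, 6 in number, summed to 2211 CPM in H1OE, 2814 CPM in Levodopa and 2624 CPM in control, and 6 blood cell markers to 632 CPM in H1OE, 962 CPM in Levodopa and 938 CPM in control, with 0 of either past 2-fold. The dosage compensation RNA lncRNA:roX1, made in males, had 37646 counts in H1OE, 33845 in Levodopa and 30978 in control. The 6 germline and female body markers did differ, and summed to 79.0 CPM in H1OE, 101 CPM in Levodopa and 125 CPM in control. Of 4 compared, the yolk protein genes Yp1 and Yp2 were at least 2-fold lower and vas was higher. The other, Yp3, did not pass.

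The overexpressed gene itself could not be checked. All 23 annotated His1 copies had 0 counts in H1OE, in Levodopa and in control. Most histone mRNAs of this kind carry no poly(A) tail, and the sources used here do not say how reads shared by identical copies were counted. The driver's parent gene elav, which codes for a neuronal RNA-binding protein, had 4094 counts in H1OE, 3190 in Levodopa and 3151 in control, a log2 difference of 0.19 from control. Among 15 histone variants and histone chaperones compared, 1 was at least 2-fold higher and 0 were lower. That gene was Nap1, a nucleosome assembly chaperone, with 132 counts in H1OE, 80 in Levodopa and 49 in control, a 2.37-fold ratio to control (95% counting interval 1.69 to 3.36). Nap1 had 4.92 CPM in H1OE and 1.98 CPM in the 29 °C control, against 154 and 160 CPM in the 25 °C control columns, so its level differed far more between the untreated tables than with H1OE. Of 27 genes for histone acetylation, deacetylation and silencing, 0 passed 2-fold. Their log2 differences ran up to 0.53 for Su(var)3-9, a histone methyltransferase of heterochromatin, with 82 counts in H1OE, 105 in Levodopa and 47 in control.

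Counting a feature as changed when it differed at least 2-fold (after TMM scaling, with 10 counts added to both libraries), 160 features (1.75%) were higher in H1OE and 240 (2.63%) were lower, 4.38% in all. These shares are the background for every gene and marker list above and below. For H1OE against Levodopa, the same rule called 1.96% of features higher and 2.04% lower. For Levodopa against control at 29 °C, a comparison that shares the control library, it called 0.299% higher and 0.609% lower, 0.907% in all. Between both columns of the 25 °C control, which were deposited under 1 sample and so show no spread between fly samples, it called 0.0652% higher and 0.152% lower, 0.217% in all. The median log2 difference was -0.01, the median size of a difference was 0.19, and 70.5% of features lay within 1.25-fold. Differences past 4-fold were fewer, 29 features higher and 56 lower.

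Of the features compared, 8688 reached 50 counts in both libraries, 284 in H1OE only and 160 in control only. Among the 8688, 77 were higher and 155 lower. The minimum applies to raw counts, and the scaled size of the H1OE library was 1.137 times that of control. Features that reached it in 1 library only therefore lean towards that library, though some need not differ after scaling. Of them, 83 of the 284 and 85 of the 160 passed 2-fold. At the edge of the minimum, 32 of 183 features with a highest count of 50 to 59 passed 2-fold, and 51 of 252 with a highest count of 40 to 49 would have. Longer transcripts tended to be higher in H1OE. The median log2 difference was -0.11 in the lowest quartile of exonic length, -0.06 and -0.02 in the middle quartiles and 0.08 in the highest, and its rank correlation with length was 0.22 across 9132 features, which are not independent replicates.

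**Figure D1:**
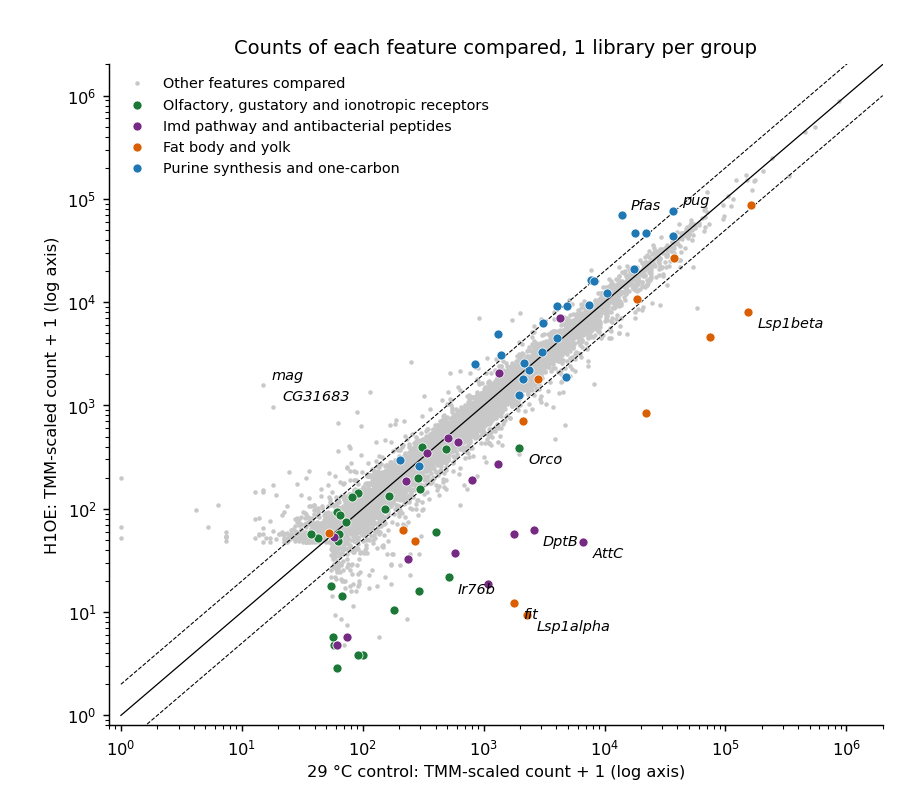
Each point is 1 feature compared, with its TMM-scaled count plus 1 in H1OE on the vertical log axis and in the 29 °C control on the horizontal log axis. The solid line marks equal counts and the dashed lines 2-fold, and Lsp1alpha, fit and AttC lie far below it while mag, CG31683 and Pfas lie above. The points stand for 1 library per group.

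The receptors that smell-sensing neurons use were lower in H1OE for many genes. Flies detect odours with antennal neurons that carry either odorant receptors (Or), which work only with the shared partner Orco, or ionotropic receptors (Ir), which need the co-receptors Ir8a, Ir25a or Ir76b. Of 28 receptor genes compared among 186 annotated Or, Gr (gustatory) and Ir genes, 13 were lower in H1OE, 0 were higher and 15 were neither, and the median log2 difference was -0.73 (all medians given for lists are of this kind). Because 11 of the 28 reached 50 counts in control only, that count is biased towards lower values. In bulk RNA, fewer cells of a type and less RNA per cell cannot be told apart.

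The co-receptors had enough counts in control to be read one by one. Orco had 412 counts in H1OE, 2189 in Levodopa and 1847 in control, 5.1-fold lower than control (4.58 to 5.69). Ir76b, the partner of many amine and taste receptors, had 22 counts in H1OE, 440 in Levodopa and 481 in control, 24.9-fold lower (16.2 to 40). Its FPKM, a level per length, was 0.356 in H1OE and 8.71 in control. The H1OE library was the low one in each case, and the Levodopa library lay near control. Ir8a, the co-receptor of acid-sensing neurons, had 10 counts in H1OE, 142 in Levodopa and 168 in control, 19.1-fold lower (10.1 to 40.6). Ir25a, the most widely used Ir co-receptor, had 62 counts in H1OE, 443 in Levodopa and 380 in control, 6.97-fold lower (5.32 to 9.27). Ir93a, the co-receptor of dry, moist and cool sensing neurons, went the other way, with 149 counts in H1OE, 106 in Levodopa and 84 in control, 1.56-fold higher (1.19 to 2.06). Orco had 15.4 CPM in H1OE against 146 and 147 CPM in the 25 °C control columns, and Ir76b had 0.82 CPM in H1OE against 19.2 and 21.1 CPM there, so H1OE lay below Levodopa and below the control at both temperatures.

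Tuning receptors, which set the odour each neuron responds to, ranged from genes with few counts in H1OE to genes that stayed close. The genes named in this paragraph all reached 50 counts in control only, so the minimum itself favoured falls among them. Or59b had 16 counts in H1OE, 343 in Levodopa and 272 in control, 19.3-fold lower (11.7 to 34.3). Or22a, a receptor for fruit esters, had 3 counts in H1OE, 64 in Levodopa and 85 in control. Ir64a, an acid receptor that works with Ir8a, had 3 counts in H1OE, 112 in Levodopa and 93 in control, and Or47b, which detects fly pheromones, had 2 in H1OE, 94 in Levodopa and 56 in control. Or47a had 4 counts in H1OE, 54 in Levodopa and 56 in control, Or85e 4 in H1OE, 93 in Levodopa and 53 in control, and Or59c 5 in H1OE, 66 in Levodopa and 52 in control. The lower bounds of these falls were all above 4-fold, and among the 29 °C libraries each gene was lowest in H1OE. Or42b was lower with 14 counts in H1OE, 128 in Levodopa and 62 in control, as was Gr64f, a sugar receptor subunit, with 18 in H1OE, 79 in Levodopa and 50 in control.

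Other tuning receptors stayed within 2-fold. Or43b had 140 counts in H1OE, 192 in Levodopa and 154 in control. Ir75a, an acetic acid receptor that also uses Ir8a, had 210 in H1OE, 373 in Levodopa and 269 in control. Ir40a, which works with Ir93a in moisture sensing, had 59 in H1OE, 75 in Levodopa and 59 in control, and Ir68a, also a moisture receptor, had 99 in H1OE, 123 in Levodopa and 56 in control. Summed without any count minimum, the 59 tuning Or genes had 765 counts in H1OE, 2158 in Levodopa and 1855 in control, 2.76-fold lower than control (2.53 to 3.0), and 39 of the 45 with at least 5 counts were lower after scaling. The 62 Ir genes other than co-receptors had 1676 counts in H1OE, 2108 in Levodopa and 1832 in control, 1.24-fold lower (1.16 to 1.33), and the 60 Gr genes had 465 in H1OE, 592 in Levodopa and 542 in control, 1.33-fold lower (1.17 to 1.5). With the Levodopa library in place of control, 16 of 31 receptor genes were lower in H1OE and 0 were higher.

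**Figure D2:**
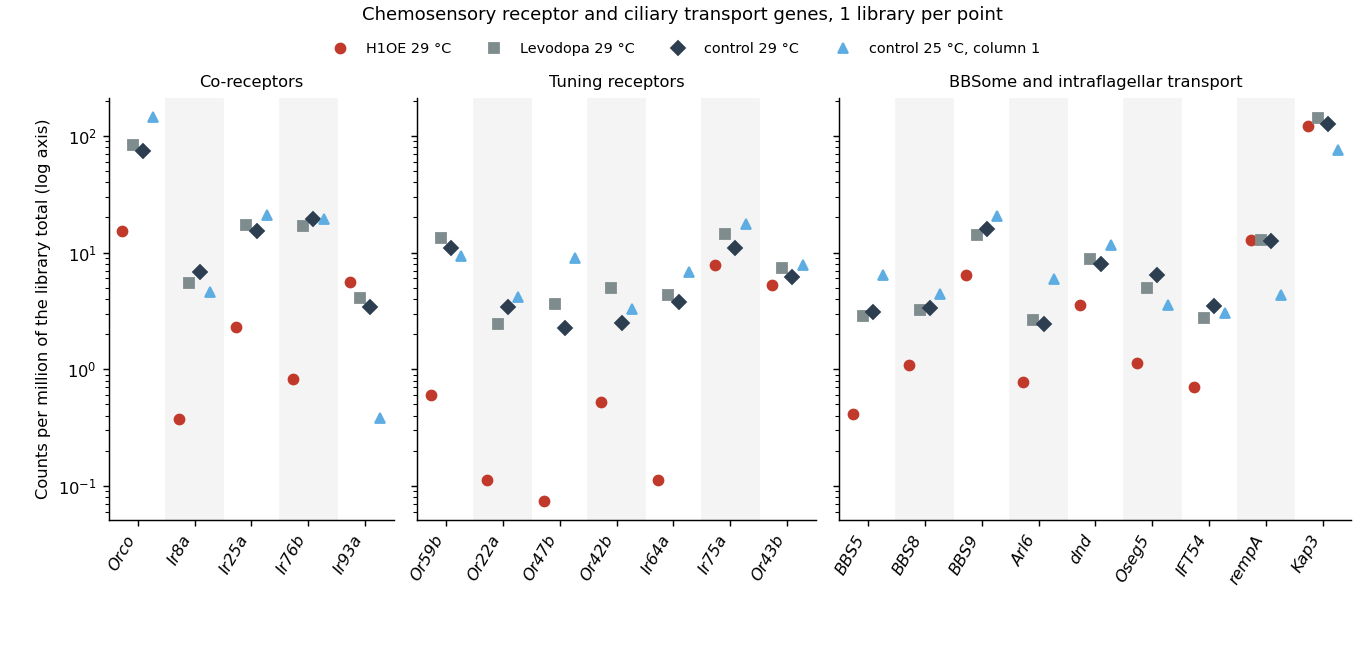
CPM of each library total, on a log axis, for olfactory co-receptors, tuning receptors and genes of ciliary transport, with 1 point per library and H1OE leftmost in each gene. H1OE lies below the 3 other points for Orco, Ir8a, Ir25a, Ir76b, BBS5, BBS8 and BBS9, while Or43b, rempA and Kap3 lie within 2-fold of control.

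Some genes for transport inside the sensory cilium, where these receptors sit, were lower as well. The BBSome is a protein coat that carries receptors along cilia, and intraflagellar transport (IFT) moves cargo on motor proteins. Of 22 such genes compared among 27, 9 were lower in H1OE, 1 was higher and 12 were neither, with a median of -0.80. As 8 of the 22 reached 50 counts in control only, these counts lean towards lower values. This list was drawn up after the values were seen. The BBSome subunit BBS5 had 11 counts in H1OE, 74 in Levodopa and 77 in control, 7.96-fold lower (counting interval from 4.21 upwards). BBS8 had 29 counts in H1OE, 84 in Levodopa and 83 in control, 3.25-fold lower (2.11 to 5.15), and BBS9 had 171 in H1OE, 364 in Levodopa and 394 in control, 2.62-fold lower (2.18 to 3.15). All 3 subunits were lowest in H1OE.

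The GTPase that recruits the BBSome, Arl6, had 21 counts in H1OE, 68 in Levodopa and 61 in control. Among IFT genes, Oseg5 had 30 counts in H1OE, 129 in Levodopa and 160 in control, 6.06-fold lower (4.09 to 9.28). IFT54 had 19 counts in H1OE, 72 in Levodopa and 87 in control, 5.21-fold lower (3.14 to 9.06), and dnd, an Arl GTPase of ciliated neurons, had 96 in H1OE, 227 in Levodopa and 197 in control, 2.33-fold lower (1.82 to 3.01). Other parts of the same machinery did not pass 2-fold. The IFT subunit gene rempA had 344 counts in H1OE, 335 in Levodopa and 310 in control, and the kinesin subunit gene Kap3 had 3248 in H1OE, 3693 in Levodopa and 3128 in control. The IFT gene nompB was higher, with 182 counts in H1OE, 111 in Levodopa and 63 in control, 2.54-fold (1.90 to 3.44). Genes of the hearing organ, which has ciliated neurons too, were in a list also drawn up after the values were seen. Their median was -0.02 over 11 compared, with 1 higher (nompB again) and 0 lower. In that list, btv fell just short, with 192 counts in H1OE, 432 in Levodopa and 346 in control. Without the added counts it was 2.05-fold lower than control (1.71 to 2.46). The touch channel nompC had 152 counts in H1OE, 182 in Levodopa and 202 in control. Against Levodopa, 0 of the 11 were higher in H1OE and 1 was lower.

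Genes of antennal support cells, which bathe the odour neurons in binding proteins and clear odours, were mostly somewhat lower. Of 16 in a list drawn up after the values were seen, 2 were at least 2-fold lower (12.5%, against 4.38% of all features called) and 0 were higher. In all, 15 of the 16 had a log2 difference below 0, and the median was -0.40. Past 2-fold were Cyp6w1, a cytochrome P450, with 2588 counts in H1OE, 9532 in Levodopa and 6855 in control, and the esterase Est-6, with 15763 in H1OE, 30743 in Levodopa and 30868 in control. Short of it, Obp19d was 1.58-fold lower than control (1.56 to 1.61) and Snmp1 1.52-fold lower (1.40 to 1.65). The pheromone-binding protein gene lush had 1157 counts in H1OE, 1415 in Levodopa and 1244 in control. Among 24 odorant-binding protein genes, 3 were lower and 1 was higher, and 17 had a log2 difference below 0. The largest fall was that of Obp99b, given below with the fat body genes. Obp99c was lower with 9118 counts in H1OE, 17115 in Levodopa and 17644 in control, and Obp56h was higher with 271 in H1OE, 72 in Levodopa and 68 in control. Obp83a, another antennal binding protein gene, also stayed close, with 6733 counts in H1OE, 7637 in Levodopa and 7294 in control.

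Many fat body transcripts were lower in H1OE. Of 13 fat body and yolk genes compared, 8 were lower in H1OE, 0 were higher and the median was -1.66. Several of these genes are also among the fat body markers above. The storage protein genes led them. Lsp1beta had 8571 counts in H1OE, 90388 in Levodopa and 144478 in control, 19.2-fold lower (18.8 to 19.6). Its relative Lsp1alpha had 9 counts in H1OE, 97 in Levodopa and 2145 in control, 271-fold lower (142 to 593), and Lsp2 had 906 in H1OE, 8698 in Levodopa and 20606 in control, 25.9-fold lower (24.2 to 27.7). The Levodopa library fell between H1OE and control for these 3 genes. Lsp1alpha and Lsp1beta are related in sequence, and how shared reads were counted is not given.

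The satiety signal gene fit, strong in the female fat body, had 12 counts in H1OE, 362 in Levodopa and 1670 in control, 158-fold lower (90.3 to 307). Obp99b, an odorant-binding protein gene that fat body also makes, had 4907 counts in H1OE, 36758 in Levodopa and 70333 in control, 16.3-fold lower (15.8 to 16.8). The yolk protein genes were lower than in control, with 65 counts of Yp1 in H1OE, 36 in Levodopa and 201 in control. Yp2 had 51 counts in H1OE, 51 in Levodopa and 252 in control, so that H1OE and Levodopa lay close together there. Yp3 did not pass, with 1940 counts in H1OE, 2521 in Levodopa and 2635 in control. The lipoprotein gene apolpp, another fat body product, had 91892 counts in H1OE, 157114 in Levodopa and 151190 in control, 1.87-fold lower (1.86 to 1.89). The 25 °C control columns were low in storage proteins too. Lsp2 had 33.8 CPM in H1OE and 832 CPM in the 29 °C control, against 0.424 and 0.693 CPM at 25 °C. Obp99b had 183 CPM in H1OE, against 2222 and 2258 CPM at 25 °C. Lsp2 was thus lowest at 25 °C and Obp99b lowest in H1OE.

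Many antibacterial peptide genes of the Imd pathway, which answers to bacterial cell wall, were lower in H1OE than in control. Of 17 genes compared, 10 were lower, 0 were higher and the median was -2.25, with 5 of the 17 reaching 50 counts in control only. The fat body, a main source of these peptides, had lower markers in H1OE than in this control. Its part in these falls was not tested. The peptide gene AttC had 50 counts in H1OE, 104 in Levodopa and 6267 in control, 143-fold lower (108 to 192). DptA had 19 counts in H1OE, 7 in Levodopa and 1008 in control, 60.3-fold lower (38.4 to 101), and its neighbour DptB had 65 in H1OE, 17 in Levodopa and 2435 in control, 42.6-fold lower (33.3 to 55.4). Here the control library stood apart and the Levodopa library lay with H1OE. Dro had 39 counts in H1OE, 63 in Levodopa and 542 in control, and PGRP-SC2, an enzyme that breaks down bacterial cell wall, had 59 in H1OE, 502 in Levodopa and 1665 in control.

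With the Levodopa library in place of control, an alternative chosen after seeing the data, the direction did not hold. Then 4 Imd genes were higher in H1OE, 1 was lower and the median over 13 compared was 0.49. DptA had 0.708 CPM in H1OE and 0.269 CPM in Levodopa, against 40.7 CPM in the 29 °C control and 31.1 and 29.3 CPM in the 25 °C control columns. AttC had 1.86 CPM in H1OE and 253 CPM in the 29 °C control, while the 25 °C columns, at 8.79 and 6.90 CPM, lay nearer to H1OE. Genes of the signalling steps did not follow the peptides. The NF-kappaB factor Rel had 7536 counts in H1OE, 3479 in Levodopa and 4005 in control, 1.65-fold higher (1.59 to 1.72), and the receptor PGRP-LC had 2190 in H1OE, 1487 in Levodopa and 1263 in control, 1.53-fold higher (1.42 to 1.64). The pathway inhibitor pirk had 195 counts in H1OE, 90 in Levodopa and 212 in control.

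Peptide genes of the Toll pathway, which answers to fungi and Gram-positive bacteria, were higher for several members. Of 28 genes compared, 7 were higher in H1OE and 1 was lower, with a median of 0.06. The count of higher genes leans upwards, as 3 of the 28 reached the count minimum in H1OE only and 1 in control only. BomBc1 and IMPPP, given below, are among those 3. The antifungal peptide gene Drs had 1312 counts in H1OE, 67 in Levodopa and 302 in control, 3.82-fold higher (3.37 to 4.34). The bomanin BomS2 had 2305 counts in H1OE, 404 in Levodopa and 599 in control, 3.38-fold higher (3.09 to 3.71), BomBc3 had 983 in H1OE, 272 in Levodopa and 336 in control, 2.57-fold higher (2.27 to 2.92), and BomBc1 had 155 in H1OE, 5 in Levodopa and 13 in control, 10.5-fold higher (5.96 to 20.1). H1OE was the highest of the 29 °C libraries for all 4. The bomanins BomS3 and BomS1 did not pass 2-fold. BomS3 had 2333 counts in H1OE, 893 in Levodopa and 1158 in control, 1.77-fold higher (1.65 to 1.90). BomS1 had 564 counts in H1OE, 287 in Levodopa and 368 in control, 1.35-fold higher (1.18 to 1.54).

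The paired loci IMPPP and CG33470, annotated with the same immune-induced peptides, were both higher, and reads may be split between them. IMPPP had 183 counts in H1OE, 12 in Levodopa and 26 in control, and CG33470 had 2505 in H1OE, 629 in Levodopa and 789 in control. The antifungal peptide gene Mtk was lower than control with 72 counts in H1OE, 9 in Levodopa and 209 in control. Against Levodopa, 9 of 28 Toll genes were higher in H1OE and 0 were lower. Drs had 48.9 CPM in H1OE, 2.58 CPM in Levodopa and 12.2 CPM in the 29 °C control, and the 25 °C control columns held still more, 334 and 341 CPM. Signal components did not pass 2-fold. The ligand gene spz had 535 counts in H1OE, 755 in Levodopa and 758 in control, 1.61-fold lower (1.44 to 1.80). The NF-kappaB factor gene Dif was closer, with 3511 counts in H1OE, 3481 in Levodopa and 3060 in control, and its inhibitor cact with 3548 in H1OE, 3236 in Levodopa and 3044 in control.

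**Figure D3:**
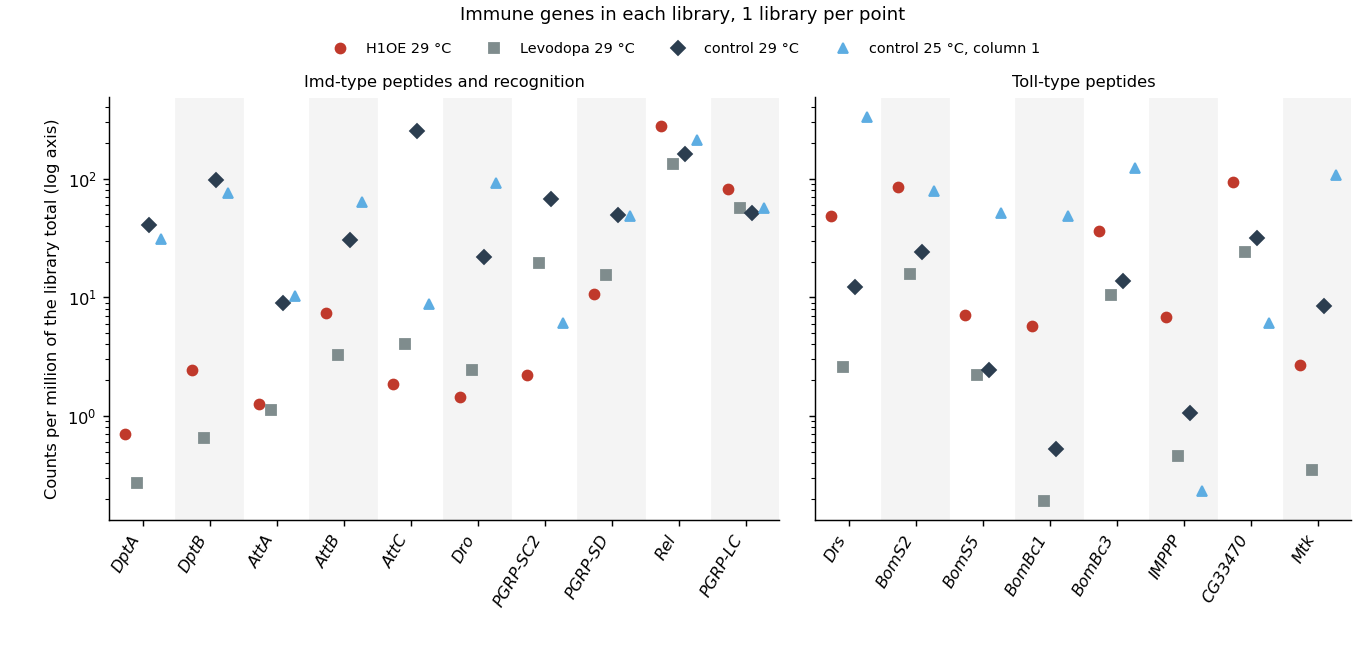
CPM of each library total, on a log axis, for Imd-type genes on the left and Toll-type peptide genes on the right, with 1 point per library and H1OE leftmost in each gene. For DptA, DptB, AttA and AttC the 29 °C control lies far above H1OE and Levodopa, and for Drs, BomS2 and BomBc1 H1OE lies above both.

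Turandot genes code for secreted stress peptides. Of 8 compared in that list, which also holds JAK-STAT genes, 4 were lower and 0 were higher. The minimum of 50 counts was reached in control only by 1 of the 8. TotA had 394 counts in H1OE, 1342 in Levodopa and 1777 in control, 5.13-fold lower (4.60 to 5.73), and TotX had 115 in H1OE, 688 in Levodopa and 595 in control, 5.88-fold lower (4.81 to 7.25). TotC had 172 counts in H1OE, 167 in Levodopa and 438 in control, 2.90-fold lower than control (2.42 to 3.47), with H1OE and Levodopa alike. Against Levodopa, 2 of 7 genes of the list were lower in H1OE and 0 were higher. The receptor-linked kinase gene hop had 1356 counts in H1OE, 1250 in Levodopa and 1052 in control, and did not pass. Of 17 blood cell and melanisation genes, 0 passed, though both phenoloxidase genes had lower values, with 3505 counts of PPO1 in H1OE, 5183 in Levodopa and 5390 in control. NimB1 went the other way, with 382 counts in H1OE, 161 in Levodopa and 165 in control. Without the added counts it was 2.04-fold higher than control (1.69 to 2.46). Against Levodopa, 1 of the 17 was higher in H1OE and 0 were lower.

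Several genes for making purines were higher in H1OE. De novo purine synthesis builds the base on a ribose stepwise and consumes glycine, glutamine and formyl groups carried by folate. The 11 genes of a list drawn up after the values were seen summed to 9995 CPM in H1OE, 3432 CPM in Levodopa and 4570 CPM in control. Of the 11, 3 were higher, 0 were lower and the median was 0.53. Pfas, which codes for the enzyme of a middle step, had 74257 counts in H1OE, 12166 in Levodopa and 12972 in control, 5.03-fold higher (4.94 to 5.13). Its FPKM was 625 in H1OE and 122 in control.

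Gart, whose product carries out several of the steps, had 49699 counts in H1OE, 11666 in Levodopa and 16808 in control, 2.60-fold higher (2.56 to 2.65). CG11089, the fly match of the mammalian enzyme ATIC for the closing steps, had 49791 counts in H1OE, 12128 in Levodopa and 20691 in control, 2.12-fold higher (2.08 to 2.15). Just under 2-fold lay Prps, which makes the activated ribose, with 17200 counts in H1OE, 6001 in Levodopa and 7710 in control, and AdSL with 9795 in H1OE, 2928 in Levodopa and 4604 in control. H1OE was the highest of the 29 °C libraries for all 5. Paics, whose product carries out middle steps, differed less, with 46464 counts in H1OE, 28980 in Levodopa and 34427 in control. Among genes that turn the product into GMP and AMP, ras and AdSS stayed close. ras had 2369 counts in H1OE, 2632 in Levodopa and 2233 in control, and AdSS had 4794 in H1OE, 3837 in Levodopa and 3814 in control.

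Some genes of folate and methionine metabolism were higher as well. Of 14 in a list drawn up after the values were seen, 7 were higher, 1 was lower, 6 were neither and the median was 0.65. pug, which charges folate with the formyl groups that purines need, had 81820 counts in H1OE, 25612 in Levodopa and 34815 in control, 2.07-fold higher (2.04 to 2.09). Its mitochondrial counterpart Nmdmc had 5255 counts in H1OE, 785 in Levodopa and 1237 in control, 3.74-fold higher (3.51 to 3.98). Among the 29 °C libraries both genes were highest in H1OE and lowest in Levodopa. aay, a phosphoserine phosphatase that makes serine, had 17390 counts in H1OE, 5574 in Levodopa and 7201 in control. The list's glycine cleavage genes differed among themselves. CG3999, the match of glycine dehydrogenase, had 3253 counts in H1OE, 873 in Levodopa and 1314 in control, 2.18-fold higher (2.04 to 2.32). Its partners did not pass 2-fold, with 1344 counts of ppl in H1OE, 1651 in Levodopa and 1840 in control, 1.56-fold lower (1.45 to 1.67). CG6415 had 1903 counts in H1OE, 1791 in Levodopa and 1973 in control, 1.18-fold lower (1.11 to 1.26).

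On the methionine side, Ahcy, which removes the by-product of methylation, had 9870 counts in H1OE, 3315 in Levodopa and 3817 in control, 2.27-fold higher (2.19 to 2.36), and Sardh, which oxidises sarcosine, had 6750 in H1OE, 2660 in Levodopa and 2882 in control. Shmt, which moves carbon from serine to folate, had 22500 counts in H1OE, 13537 in Levodopa and 16526 in control and did not pass 2-fold. Mthfs, which frees stored folate, was lower with 1999 counts in H1OE, 3684 in Levodopa and 4472 in control, 2.54-fold (2.41 to 2.68). Against Levodopa, 5 of the 11 purine genes and 7 of the 14 one-carbon genes were higher in H1OE and 0 were lower. Pfas also differed between the untreated tables, with 2767 CPM in H1OE, 524 CPM in the 29 °C control and 95.8 and 94.3 CPM in the 25 °C control columns.

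**Figure D4:**
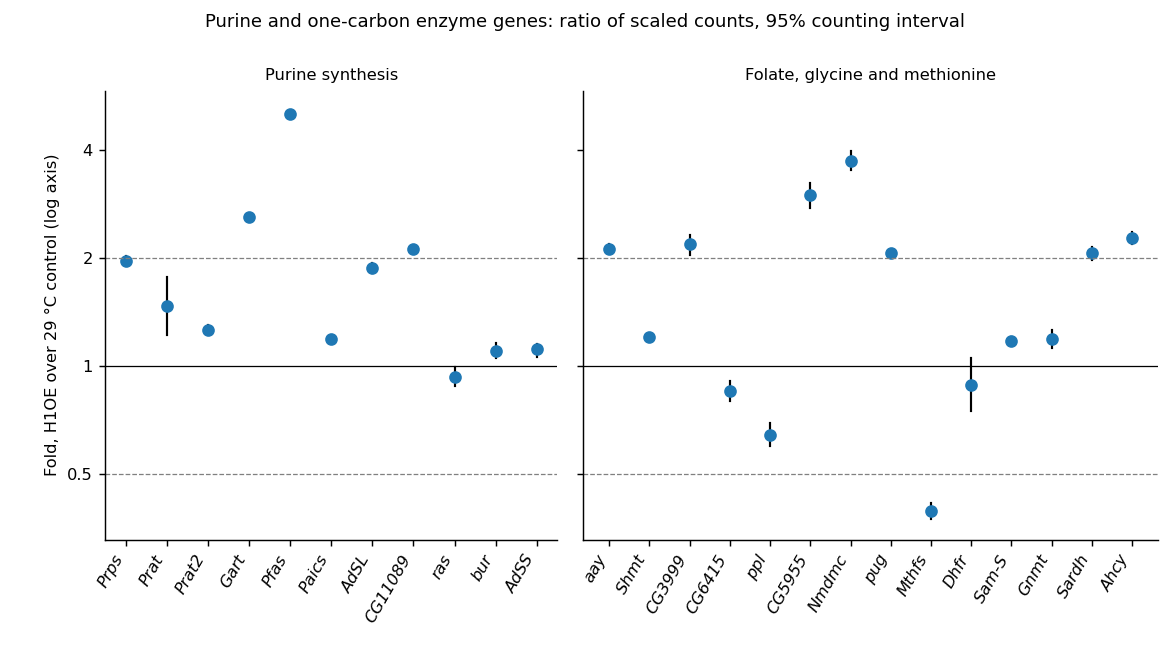
Ratio of TMM-scaled counts, H1OE over 29 °C control, on a log axis for genes of purine synthesis in pathway order and of folate, glycine and methionine metabolism, with lines for 95% counting intervals. The dashed lines mark 2-fold; Pfas stands highest at 5.03-fold and Mthfs is the lowest.

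Lipid storage genes bear on the series' question of fat breakdown. Of 23 compared, 1 was higher, 3 were lower and the median was -0.05. The main fat body lipase gene bmm had 8057 counts in H1OE, 4406 in Levodopa and 4813 in control, 1.47-fold higher (1.42 to 1.53), which did not pass 2-fold. The hormone-sensitive lipase gene Hsl had 1734 counts in H1OE, 1607 in Levodopa and 1513 in control, 1.01-fold (0.94 to 1.08). The lipid droplet coat genes split. Lsd-1, whose protein guards and recruits lipases on droplets, had 4750 counts in H1OE, 10621 in Levodopa and 10555 in control, 2.53-fold lower (2.44 to 2.62). Jabba, which anchors histones on droplets in embryos, had 2301 counts in H1OE, 5809 in Levodopa and 5326 in control, 2.63-fold lower (2.51 to 2.76). Lsd-2, the protective coat protein gene, had 15428 counts in H1OE, 18852 in Levodopa and 15852 in control and did not pass. The receptor gene AkhR for the fat-mobilising hormone had 856 counts in H1OE, 1473 in Levodopa and 1284 in control, and Akh itself had 4 in H1OE, 5 in Levodopa and 7 in control, too few to compare.

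The largest rise of any feature was the lipase gene mag (3L, 20460683 to 20462274, dm6, plus strand), known for digesting dietary fat in the gut. It had 1678 counts in H1OE, 12 in Levodopa and 13 in control, 114-fold higher (66.2 to 214). mag lies inside the span of atk, which codes for an extracellular matrix protein on the opposite strand (3L, 20454690 to 20464862). atk had 2789 counts in H1OE, 239 in Levodopa and 236 in control, 10.4-fold higher (9.10 to 11.9). The next gene along, CG5955, the match of threonine dehydrogenase, had 2685 counts in H1OE, 679 in Levodopa and 790 in control, 2.99-fold higher (2.76 to 3.24). Since no strand setting is given, reads of mag and atk cannot be told apart where their exons overlap.

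The 15 largest rises held genes matched to other lipid enzymes. CG31683, matched in the deposited annotation to phospholipase A2 group XV (2L, 20447734 to 20449964, minus strand), had 1035 counts in H1OE, 12 in Levodopa and 16 in control, 56.9-fold higher (34.9 to 99.9). CG18858, a similar gene close by on 2L, had 2181 counts in H1OE, 619 in Levodopa and 493 in control, 3.89-fold higher (3.53 to 4.30). CG11425, matched to a phosphatidate phosphatase, had 1450 counts in H1OE, 142 in Levodopa and 107 in control, 11.9-fold higher (9.79 to 14.6). CG18858 is not among those 15, nor are the acyl-CoA ligase genes bgm and hll, which lie next to each other on 2L and were just past 2-fold. bgm had 7380 counts in H1OE, 2903 in Levodopa and 2786 in control, and hll had 8523 in H1OE, 2887 in Levodopa and 3589 in control. The lipase-like gene CG6283 was lower than control with 8 counts in H1OE, 14 in Levodopa and 61 in control.

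Fatty acid oxidation genes shared a small shift without passing 2-fold. Of 22 compared, 0 passed and all 22 had a log2 difference below 0, from -0.79 to -0.20, with a median of -0.54. yip2, a mitochondrial thiolase gene, had 5112 counts in H1OE, 6741 in Levodopa and 7794 in control, and the trifunctional enzyme gene Mtpalpha had 7134 in H1OE, 10965 in Levodopa and 9874 in control. Against Levodopa, the median was -0.44. Nuclear genes of oxidative phosphorylation had a median of -0.33 over 58 compared, with 57 below 0, and proteasome genes a median of -0.24 over 32, with 31 below 0. Fatty acid synthesis was mostly flat, as for FASN1 with 107251 counts in H1OE, 104975 in Levodopa and 107512 in control. ACC, which makes the substrate of that enzyme, had 60884 counts in H1OE, 35453 in Levodopa and 38800 in control, 1.38-fold higher (1.36 to 1.40).

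A few genes of sugar use were lower in H1OE. Of 24 genes of glycolysis, gluconeogenesis and trehalose, 2 were lower and 0 were higher. Pepck2, for the first committed step of gluconeogenesis, had 339 counts in H1OE, 3541 in Levodopa and 3964 in control, 13.3-fold lower (11.9 to 14.9). Gpdh1, which links sugar breakdown to glycerol phosphate, had 9545 counts in H1OE, 19151 in Levodopa and 19365 in control, 2.31-fold lower (2.25 to 2.36). In both, Levodopa lay next to control. Glycolytic genes stayed closer, as for PyK, for the last step of glycolysis, with 39218 counts in H1OE, 40263 in Levodopa and 35694 in control. tobi, a glycosidase gene of the fat body that responds to insulin and adipokinetic hormone, had 9253 counts in H1OE, 27894 in Levodopa and 54986 in control, 6.76-fold lower (6.61 to 6.91). The amylase gene Amy-p had 11138 counts in H1OE, 849 in Levodopa and 4799 in control. Its near-identical copy Amy-d had 8551 in H1OE, 11941 in Levodopa and 16725 in control, and reads may be split between both.

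The brain's insulin-like peptides were lower together. They are made by a small group of neurosecretory cells that signal feeding state to the body. Ilp2 had 361 counts in H1OE, 1443 in Levodopa and 1834 in control, 5.78-fold lower (5.16 to 6.48). Ilp3 had 130 counts in H1OE, 176 in Levodopa and 327 in control, 2.86-fold lower (2.33 to 3.53), and Ilp5 had 179 in H1OE, 233 in Levodopa and 377 in control, 2.39-fold lower (2.00 to 2.88). Among the 29 °C libraries H1OE was lowest for all 3, while for Ilp3 and Ilp5 Levodopa was nearer to H1OE than to control. Ilp5 had 6.67 CPM in H1OE and 15.2 CPM in the 29 °C control, against 5.01 and 4.92 CPM in the 25 °C control columns. Ilp3 had 4.84 CPM in H1OE and 13.2 CPM in the 29 °C control, against 4.66 and 6.45 CPM at 25 °C, so both genes were about as low there as in H1OE. Ilp2 was not, with 13.5 CPM in H1OE against 148 and 142 CPM at 25 °C. The insulin receptor gene InR was higher with 1921 counts in H1OE, 818 in Levodopa and 827 in control, 2.04-fold (1.88 to 2.22). Thor, a translational brake that foxo switches on when insulin is low, had 7075 counts in H1OE, 1392 in Levodopa and 1620 in control, 3.84-fold higher (3.64 to 4.06). foxo itself had 3211 counts in H1OE, 2240 in Levodopa and 2227 in control and did not pass. The fat body insulin Ilp6 had 1221 in H1OE, 1046 in Levodopa and 1189 in control. Of 23 genes in the insulin list, 2 were higher and 3 lower, and InR lost its call when a length trend was removed or FPKM were used.

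Some other genes of the neuropeptide list were lower too. Of 27 compared, the 3 insulins included, 9 were lower, 0 were higher, 18 were neither and the median was -0.44. Hug, a feeding peptide gene, had 220 counts in H1OE, 954 in Levodopa and 822 in control, 4.25-fold lower (3.66 to 4.95). Nplp3 had 1714 counts in H1OE, 9174 in Levodopa and 7721 in control, 5.12-fold lower (4.86 to 5.40). CCHa2, a nutrient signal from fat body and gut to the insulin cells, had 1096 counts in H1OE, 2162 in Levodopa and 3065 in control, 3.18-fold lower (2.97 to 3.41), and Dh44, a gut and stress peptide, had 597 in H1OE, 1447 in Levodopa and 1157 in control, 2.2-fold lower (1.99 to 2.44). Peptides such as sNPF, with 3089 counts in H1OE, 3288 in Levodopa and 3172 in control, and Tk, with 1268 in H1OE, 1082 in Levodopa and 1109 in control, did not pass. The tyrosine hydroxylase gene ple, for the first step of dopamine synthesis, had 1091 counts in H1OE, 1907 in Levodopa and 1656 in control, 1.73-fold lower (1.60 to 1.86), and Ddc, for the next step, had 3926 in H1OE, 3964 in Levodopa and 3734 in control. Of 20 transmitter genes, 1 passed: AANAT1, which inactivates dopamine, was lower with 2539 counts in H1OE, 4414 in Levodopa and 4808 in control.

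Stress genes gave a mixed picture. Of 23 heat shock and chaperone genes, 5 were higher, 0 were lower and the median was 0.36. Hsp23, a small heat shock gene, had 1512 counts in H1OE, 659 in Levodopa and 593 in control, and its neighbour Hsp27 had 306 in H1OE, 102 in Levodopa and 119 in control. Hsp67Bc, also of that family, had 351 in H1OE, 139 in Levodopa and 90 in control. Hsp70Ab and Hsp70Ba also passed, but the Hsp70 copies are near-identical and another copy, Hsp70Bbb, had 223 counts in H1OE, 544 in Levodopa and 105 in control. Against Levodopa, 3 heat shock genes were higher, 1 was lower and the median was -0.07. Gadd45, a growth arrest gene of DNA damage and JNK signalling, had 427 counts in H1OE, 142 in Levodopa and 71 in control, 5.29-fold higher (4.11 to 6.90). It was the only gene to pass in a list of 24 for apoptosis, JNK and DNA damage, which does not hold every such gene. Outside that list, phr, the gene of a light-driven DNA repair enzyme, had 928 counts in H1OE, 108 in Levodopa and 83 in control, 9.83-fold higher (7.85 to 12.5). Strica, a caspase gene also outside it, had 38 in H1OE, 309 in Levodopa and 271 in control, 8.11-fold lower (5.76 to 11.7).

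Detoxification genes went both ways, 4 higher and 7 lower of 37. Among the P450 genes, Cyp6a2 was higher with 711 counts in H1OE, 194 in Levodopa and 171 in control, and Cyp6a20 with 2185 in H1OE, 1070 in Levodopa and 728 in control. Cyp4e3 was lower with 686 counts in H1OE, 2041 in Levodopa and 4375 in control, and Cyp12d1-p with 29 in H1OE, 147 in Levodopa and 190 in control. Of 23 genes for oxidative stress and metals, 1 was lower, and Tsf1, the iron carrier transferrin, lay just under 2-fold with 178483 counts in H1OE, 263372 in Levodopa and 311356 in control. Of 13 genes on the mitochondrial genome, 5 were lower, 0 were higher and the median was -0.76. mt:ND1, a subunit of complex I, had 9977 counts in H1OE, 30030 in Levodopa and 26848 in control, while mt:CoI, a subunit of complex IV, had 530726 in H1OE, 483603 in Levodopa and 516090 in control. The mitochondrial genome as a whole took 4.47% of counts in H1OE, 4.96% in Levodopa and 5.23% in control.

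Many groups hardly differed. None passed 2-fold among 16 neuronal identity genes (median 0.12), 21 genes of synaptic vesicle release (0.08), 14 glial genes (-0.12), 27 of phototransduction (-0.02), 17 of eye pigment (-0.19), 82 of the cytoplasmic ribosome (0.03) and 14 of sex determination and dosage compensation (0.07). The active zone scaffold gene brp had 11179 counts in H1OE, 8631 in Levodopa and 7842 in control, 1.25-fold higher (1.22 to 1.29). The glial factor gene repo had 1544 in H1OE, 1900 in Levodopa and 1709 in control, and the rhodopsin gene ninaE had 950201 in H1OE, 903135 in Levodopa and 819236 in control, 1.02-fold (1.02 to 1.02). Of 14 clock genes, 1 passed, the feeding-related clock output gene to, lower with 746 counts in H1OE, 3125 in Levodopa and 1981 in control. Of 20 muscle genes, 1 was lower, and the myosin gene Mhc had 53664 in H1OE, 61115 in Levodopa and 49273 in control. Chromosome 4, which is largely heterochromatic, had 84 genes compared with a median of 0.01, and 1 was lower.

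**Figure D5:**
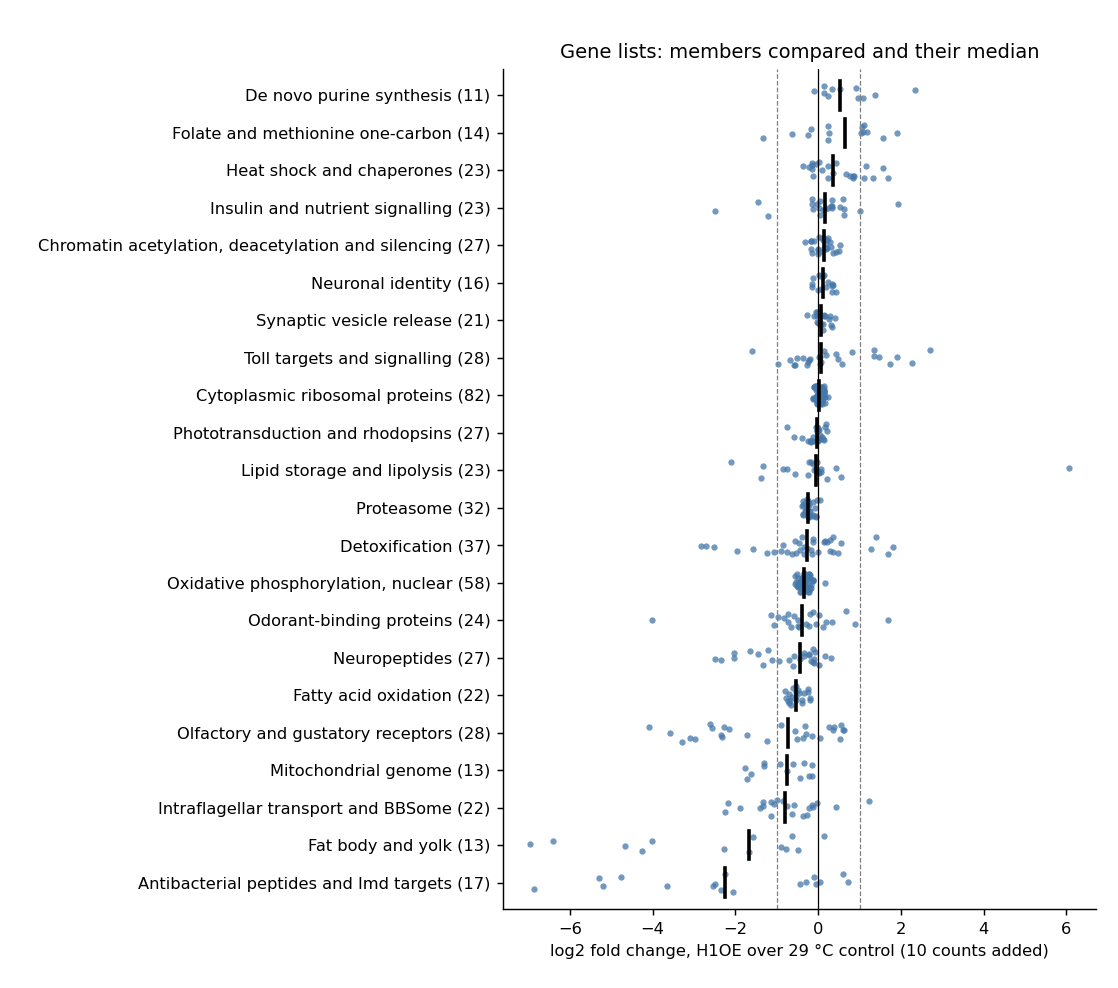
Log2 fold change of H1OE over the 29 °C control, with 10 counts added, for the compared members of 22 gene lists, whose number stands beside each name. Each dot is 1 gene and the black bar is the list's median, which runs from -2.25 for Imd genes to 0.65 for folate and methionine genes; dashed lines mark 2-fold.

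The rest of the largest rises belong to no single group. CG10383, matched to SERAC1, had 7543 counts in H1OE, 857 in Levodopa and 854 in control, 7.77-fold higher (7.24 to 8.35). Cyp4p2, a P450 gene, had 724 counts in H1OE, 54 in Levodopa and 57 in control, 11.2-fold higher (8.52 to 14.9), and Gyc76C, a receptor guanylate cyclase gene, had 243 in H1OE, 34 in Levodopa and 22 in control, 9.71-fold higher (6.27 to 15.8). The cuticle gene Acp65Aa had 153 in H1OE, 14 in Levodopa and 11 in control. The cuticle gene Pcp had 162 in H1OE, 15 in Levodopa and 13 in control, but it lies within Gart on the other strand and cannot be told apart from it. lncRNA:CR46216 had 103 counts in H1OE, 0 in Levodopa and 3 in control, a ratio of 30.2 to control (10 to 149). The mitotic kinase gene aurB had 70 counts in H1OE, 6 in Levodopa and 0 in control, at least 20.5-fold higher with 3 counts taken for the control. Of the 15 largest falls, CG15423, which the deposited annotation matches to nothing, had 5 counts in H1OE, 63 in Levodopa and 127 in control, 28.9-fold lower (12.1 to 90.5).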

How the data were processed

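Read counts per gene, whole numbers deposited by the authors, were used for 1 library of H1OE, 1 of Levodopa and 1 of control at 29 °C, with both count columns of the 25 °C control as context. FPKM values, counts per exonic length and library size, were also deposited by the authors, and the library size they imply was smaller than the summed counts by 0.2% in H1OE and 3.46% in control. The submitters' processing notes name HISAT2 2.2.1 and dm6. Which tool counted the reads, on which strand and with which annotation is not given in the sources used here. In the 29 °C table, 2 further columns matched no labelled sample and were not used.

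Libraries were scaled with TMM (edgeR 4.0.16), 10 counts at the mean scaled library size were added to both, and at least 2-fold counted as a difference. A test needs replicates, so none was run. Printed folds are ratios of scaled counts without the added counts, with exact 95% Clopper-Pearson intervals (scipy 1.17.1) on the split of both counts. The pipeline was tested on simulated data with counting error only, so that test does not cover spread between fly samples. The named genes were the 15 largest rises and falls, the 4 members of each of 43 lists and 9 marker lists with the largest difference, and a fixed set including bmm, Ilp2 and elav. Other named genes and 6 further lists were chosen after values were seen. Members and lists were all chosen with earlier results of these data known. Alternatives used DESeq2 1.42.0 size factors, total counts, other minimums, a prior count of 1, length detrending (lowess, statsmodels 0.14.6) and log2 of deposited FPKM plus 0.5.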

Additional observations from a re-analysis of the deposited data

How the results depend on the processing

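Dropping the count minimum moved the totals most, to 379 features higher and 428 lower, against 160 and 240. Under the other settings (DESeq2 size factors, total counts with and without mitochondrial and top genes, a minimum on the mean, a prior count of 1, length trend removal, FPKM) they ran from 126 to 198 higher and 207 to 275 lower. No scaling moved the median of all features by more than 0.07. No named gene that had passed 2-fold changed direction under these settings. Of 145 such genes, 10 fell short with FPKM, 5 with the length trend removed and 3 with total counts, and a minimum on the mean left 129 of them compared. Setting the Levodopa library in place of the control, an alternative chosen after seeing the data, gave 180 higher and 187 lower. Of the 145 genes, 140 were then compared, 107 passed 2-fold the same way and 28 kept their sign below it. The other 5 turned from lower to higher, with log2 differences against Levodopa of 1.42 for DptB, 1.08 for AttB, 2.07 for Mtk, 0.44 for Obp56a and 0.65 for Yp1. No paired analysis was possible because each group had 1 library. Counts under about 50, as for most tuning receptors in H1OE, limit those ratios to wide intervals, and spread between fly samples could not be measured.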

Other observations

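Transposable element insertions and pigment genes are given here because they differ between fly strains, and strain was not matched by label. Of 135 transposable element features compared, 15 were higher in H1OE (11.1%) and 6 were lower (4.44%), against 1.75% and 2.63% of all features. The minimum of 50 counts sets most of these calls, since 37 of the 135 reached it in H1OE only and 13 in control only. Of the 85 that reached it in both libraries, 0 were higher and 1 was lower, so the excess over all features is not read as a result. All such features together took 0.108% of counts in H1OE, 0.100% in Levodopa and 0.0997% in control, and the median log2 difference was 0.08. A copia insertion, FBti0019110 (2L, 2294097 to 2299243, dm6), had 208 counts in H1OE, 0 in Levodopa and 0 in control, at least 61-fold higher with 3 counts taken for the control, and 63 and 73 counts in the 25 °C control columns. FBti0018971 (2R, 8777967 to 8784099) had 8 counts in H1OE, 223 in Levodopa and 215 in control, and 1 and 0 in the 25 °C columns. FBti0019149 had 17 counts in H1OE, 169 in Levodopa and 104 in control, and 0 in both 25 °C columns. How reads shared between copies of an element were counted is not given.

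The eye colour gene w, which codes for a pigment transporter and is carried by many transgenes, had 2832 counts in H1OE, 3531 in Levodopa and 2686 in control, against 0 and 3 in the 25 °C control columns. The body colour gene y had 115 counts in H1OE, 3 in Levodopa and 5 in control, 20.2-fold higher than control (8.42 to 63.5), and 63 and 84 in the 25 °C columns. The germline helicase gene vas had 57 counts in H1OE, 7 in Levodopa and 6 in control, 8.36-fold higher than control (3.61 to 23.7).

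Genes called in the same direction sometimes lay next to each other. Among 144 higher genes on the chromosome arms, 20 stood in 9 runs of adjacent compared genes, and among 228 lower genes, 45 stood in 21 runs. The runs included atk, mag and CG5955 on 3L, Dro, AttA and AttB on 2R, and Ilp2 and Ilp3 on 3L. These runs were looked for after the values were seen, and no strand setting is given for overlapping genes. Some runs hold overlapping genes, such as Gart and Pcp, or related genes, such as Yp1 and Yp2. How many runs the shares of called features alone would give was not worked out.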
